A study of Homo sapiens with 12 samples.

Results

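The immunoglobulin heavy chain genes and 3 further B cell genes, 9 genes of the 28813 in the authors' table, were followed in MKL-1 cells, a Merkel cell carcinoma line. They are the constant region genes IGHM, IGHD, IGHG1, IGHG2, IGHG3 and IGHG4, the B cell receptor subunit genes CD79A and CD79B, and the transcription factor gene EBF1. They were chosen by name with the response to treatment known, so their values in inhibitor against vehicle, the difference of that response between days, and the changes over time in the same libraries are a description and carry no test. PolyA-selected RNA was sequenced from 12 libraries in 4 groups of 3: cells given 3 µM EPZ011989, an inhibitor of the histone methyltransferase EZH2, for 12 days or for 6 days, and cells given vehicle for 12 days or for 6 days. All groups received 1% ethanol, medium was refreshed every 3 days, and all come from a single cell line. Whether the libraries of a group are separate cultures is not stated in the labels, and p-values cover no more than the spread among the libraries.

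In B cells the heavy chain constant genes encode the part of the antibody that sets its isotype: IGHM gives IgM, IGHD gives IgD and the IGHG genes give the IgG subclasses. Alternative 3′ ends yield either a secreted chain or one with a membrane anchor, and the membrane form signals through Igα and Igβ, the products of CD79A and CD79B. EBF1 (early B cell factor), together with PAX5 and TCF3, drives the early B cell programme. Some Merkel cell carcinomas are known to carry immunoglobulin, PAX5 and the DNA polymerase TdT, although Merkel cells are not lymphoid.

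The heavy chain genes lie together on the minus strand of chromosome 14 (GRCh38, GENCODE release 29 annotation). IGHG4 spans chr14:105620506-105626066, IGHG2 chr14:105639559-105644790, IGHG1 chr14:105736343-105743071, IGHG3 chr14:105764503-105771405, IGHD chr14:105836765-105845678 and IGHM chr14:105851705-105856218. EBF1 lies at chr5:158695916-159099761 and CD79B at chr17:63928740-63932354, both on the minus strand, and CD79A at chr19:41877120-41881372 on the plus strand. The 4 gamma genes are near copies, which limits how far reads can be told apart between them. The first 105 bases compared of their first constant domain exon (CH1) are shown for that reason, 5′ to 3′ on the coding strand, with capitals marking bases that differ from IGHG1.
IGHG1 (chr14:105742966-105743070): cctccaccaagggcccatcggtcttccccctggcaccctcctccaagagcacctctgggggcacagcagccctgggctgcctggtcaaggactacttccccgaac
IGHG2 (chr14:105644685-105644789): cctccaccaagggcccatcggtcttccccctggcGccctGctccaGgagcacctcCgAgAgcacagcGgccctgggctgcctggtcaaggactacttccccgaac
IGHG3 (chr14:105771301-105771405): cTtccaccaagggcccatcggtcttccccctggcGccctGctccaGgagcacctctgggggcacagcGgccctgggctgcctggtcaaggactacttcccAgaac
IGHG4 (chr14:105625961-105626065): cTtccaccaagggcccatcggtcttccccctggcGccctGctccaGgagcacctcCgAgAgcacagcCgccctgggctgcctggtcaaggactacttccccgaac

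In these 105 bases IGHG2 differed from IGHG1 at 7 positions, IGHG3 at 6 and IGHG4 at 8. Over the 294 bases of the exon, IGHG2 and IGHG4 were each 95.2% identical to IGHG1 and IGHG3 was 97.3% identical. Of all 31-base words in the annotated transcripts, 32.9% of those of IGHG1, 36.9% of those of IGHG2, 38.1% of those of IGHG3 and 38.6% of those of IGHG4 occurred in that gene alone among the 6 heavy chain genes, against 100% for IGHM and for IGHD. The division of reads among IGHG1 to IGHG4 is therefore uncertain, and their sum is given beside the single genes.

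The libraries held 15994997 to 20866370 estimated reads, with 15501969 to 20208991 matched to annotated genes. By the matched total, 3 reads of a gene equal 0.148 to 0.194 CPM (reads scaled by library total), depending on the library. The Merkel cell carcinoma markers were present in every library, with ATOH1, a Merkel cell transcription factor, at a normalized signal of 10062 to 11722. Of 7 B cell markers 2 lay below a signal of 10 in every library, among them MS4A1 at 2.01 or less, and the other 5 exceeded 10 in at least a single library, CD37 with 53.5 at most. Of 5 plasma cell markers 3 lay below 10 in every library, with JCHAIN at 1.58 or less and TNFRSF17 listed at 0 throughout, as was the T cell marker CD3D. The 7 B cell markers summed to 38.4 to 64.0 in inhibitor libraries and 49.4 to 78.1 in vehicle libraries at day 12, and to 40.3 to 107 with inhibitor and 48.1 to 109 with vehicle at day 6, so the groups overlapped. The 10 markers of other leukocytes summed to 104 to 190.2 with inhibitor and 133 to 199 with vehicle at day 12, and to 175 to 206 with inhibitor and 231 to 302 with vehicle at day 6, where they did not overlap, with CORO1A as the bulk of each sum. The 5 plasma cell markers, mostly SDC1 signal, summed to 130 to 166 with inhibitor and 403 to 525 with vehicle at day 12. At day 6 they summed to 428 to 474 with inhibitor and 556 to 630.4 with vehicle, and neither day overlapped. MZB1 in this list went the other way at day 12, with 31, 8 and 22 estimated reads with inhibitor and 1, 0 and 0 with vehicle. The part of these markers in the heavy chain values was not tested. EZH2 RNA itself, which does not measure whether the enzyme was blocked, was lower with inhibitor by 1.54 ± 0.05 on the log2 scale at day 12 and by 0.18 ± 0.05 at day 6 (SE; edgeR adjusted p = 2.43e-12 and 0.011).

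Heavy chain RNA was lower in every inhibitor library than in every vehicle library at both days. The normalized signal summed over the 6 heavy chain genes was 1914, 1903 and 2038 with inhibitor at day 12, against 8578, 9539 and 10053 with vehicle. At day 6 it was 3135, 3176 and 3108 with inhibitor, against 10535, 10934 and 10478 with vehicle. Means with inhibitor were thus 20.8% of vehicle at day 12 and 29.5% at day 6. The signal is per gene and is not scaled by length, and in RNA from whole cultures fewer cells with these transcripts and less RNA per cell cannot be told apart.

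**Figure D1:**
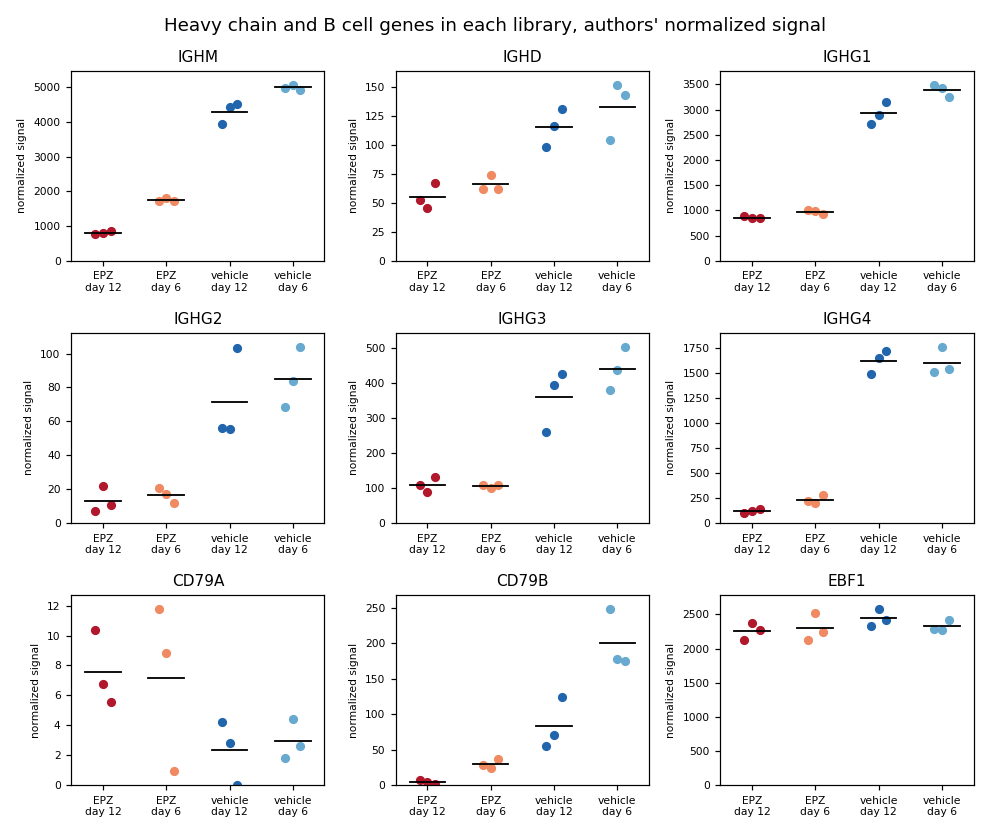
The authors' normalized signal (y axis, linear from 0, a separate scale for each gene) is plotted for each of the 12 libraries (points) with the group mean (line), with inhibitor (EPZ) at day 12 and day 6 left of vehicle at day 12 and day 6. IGHM averaged 802 with inhibitor against 4294 with vehicle at day 12, while the EBF1 groups lie close together and CD79A lies below 12 in all libraries.

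IGHM, the mu chain gene, was lower with inhibitor at both days and lowest at day 12. Its signal was 756, 792 and 857 with inhibitor and 3948, 4425 and 4510.4 with vehicle at day 12. At day 6 it was 1714, 1798 and 1729 with inhibitor and 4979.6, 5064 and 4929 with vehicle. No inhibitor library came near a vehicle library, and the 3 day 12 inhibitor libraries lay below the 3 at day 6. The edgeR log2 fold change was -2.43 ± 0.06 at day 12 and -1.51 ± 0.06 at day 6 (SE, n = 3 libraries a group).

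IGHD, transcribed from the same locus directly downstream of IGHM, was the least reduced heavy chain gene in edgeR log2 fold change. Its signal was 52.3, 45.5 and 67.3 with inhibitor and 97.7, 116 and 131 with vehicle at day 12, and 61.96, 73.98 and 61.92 with inhibitor and 104, 151 and 143 with vehicle at day 6. The groups did not overlap at either day. The log2 fold change was -0.95 ± 0.23 at day 12 and -0.84 ± 0.22 at day 6.

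The gamma genes together were at 1106, 1066 and 1113 with inhibitor and 4532, 4999 and 5412 with vehicle at day 12. At day 6 their sum was 1359, 1304 and 1317 with inhibitor and 5451, 5719 and 5406 with vehicle. The summed log2 fold change was -2.14 ± 0.06 at day 12 and -2.03 ± 0.06 at day 6, so that, unlike IGHM, the gamma sum was about as low relative to vehicle at the earlier day as at the later.

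IGHG1, the most abundant gamma gene, was at 887, 841 and 838 with inhibitor and 2721, 2896 and 3154 with vehicle at day 12. At day 6 it was at 1010.3, 987 and 921 with inhibitor and 3492, 3434 and 3255 with vehicle. Its log2 fold changes of -1.81 ± 0.06 at day 12 and -1.80 ± 0.06 at day 6 were nearly the same. IGHG4 had the largest reduction of the heavy chain genes at each day. It was at 104, 116 and 135 with inhibitor and 1496, 1651 and 1727 with vehicle at day 12, and at 221, 199 and 276 with inhibitor and 1509, 1763 and 1543 with vehicle at day 6. The log2 fold change of IGHG4 was -3.38 ± 0.12 at day 12 and -2.67 ± 0.11 at day 6.

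IGHG3 lay at 87.1 to 130.1 with inhibitor and 259 to 427 with vehicle at day 12, and at 100.2 to 109 with inhibitor and 382 to 504 with vehicle at day 6. Its log2 fold change was -1.79 ± 0.20 at day 12 and -2.22 ± 0.20 at day 6. IGHG2, the lowest gamma gene, had 8 to 25 estimated reads a library with inhibitor and 50 to 59 with vehicle at day 12, and 12 to 24 with inhibitor and 65 to 96 with vehicle at day 6. Its log2 fold change was -2.15 ± 0.37 at day 12 and -2.20 ± 0.36 at day 6, and neither gene's groups overlapped.

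CD79B, which encodes Igβ, had a larger reduction at day 12 than any heavy chain gene in edgeR log2 fold change. Its signal was 7.33, 3.96 and 0.935 with inhibitor and 54.4, 71.1 and 123.5 with vehicle at day 12. At day 6 it was 27.7, 24.5 and 36.4 with inhibitor and 248, 178 and 176 with vehicle. The day 12 inhibitor libraries rested on 9, 5 and 1 estimated reads, against 54, 82 and 76 with vehicle. The log2 fold change was -4.02 ± 0.39 at day 12 and -2.22 ± 0.31 at day 6. The day 12 value was -4.70 without replicate 1 of day 12 inhibitor, and it was -3.26 in the authors' table on the log2(value + 5) scale. On that last scale IGHG4 was the more reduced, so the ranking depended on the measure. An annotated gene overlaps CD79B on the same strand, but it held no reads except 4 in 1 day 12 vehicle library.

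CD79A, which encodes the partner subunit Igα, was barely detected and did not pass the filter on low counts. It had 12, 8 and 6 estimated reads with inhibitor and 4, 3 and 0 with vehicle at day 12, and 13, 4 and 1 with inhibitor and 2, 5 and 3 with vehicle at day 6. At day 12 the inhibitor libraries lay above the vehicle libraries and at day 6 they overlapped. Several of these values are at or under 3 reads, so no fold is given.

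EBF1 RNA stayed at a high level in all groups. Its signal was 2119.9, 2381 and 2267 with inhibitor and 2334, 2577 and 2417 with vehicle at day 12, and 2122, 2521 and 2245 with inhibitor and 2282, 2266 and 2421 with vehicle at day 6. In this signal the groups overlapped at both days. In reads scaled for the fit, every day 12 inhibitor library lay below every day 12 vehicle library. The edgeR log2 fold change from summed reads was -0.32 ± 0.05 at day 12 and -0.08 ± 0.05 at day 6. In the authors' table the same contrast at day 12 was -0.12 ± 0.07 (limma, log2(value + 1)). The TPM of EBF1, a level scaled by transcript length and library size, lay at 52.7 to 58.8 with inhibitor and 52.9 to 59.3 with vehicle at day 12, so the size of the EBF1 difference depended on the measure.

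**Figure D2:**
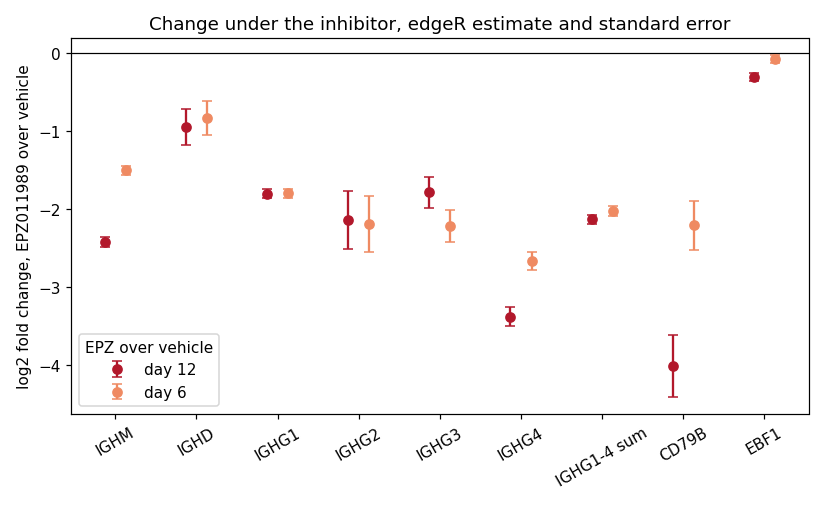
The edgeR log2 fold change of inhibitor over vehicle (y axis) is shown for the 8 genes that could be tested and for the summed gamma genes (x axis), with bars of 1 standard error, for day 12 and day 6. IGHM, IGHG4 and CD79B lie lower at day 12 than at day 6, IGHG1 lies at -1.81 and -1.80, and EBF1 lies nearest to 0.

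In counts, 8 of the 9 genes passed the filter on low counts. All 8 were called lower with inhibitor at day 12 (edgeR, adjusted p under 0.05), where 66.9% of the 15016 tested genes were called in either direction and 33.2% were called lower. At day 6, 7 of 8 were called lower, where 34.3% were called in either direction and 17.1% lower. The members were selected on this response, so nothing is read from these counts. The median log2 fold change over all tested genes was 0.02 at day 12 and -0.02 at day 6.

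The fitted response at day 12 was set against that at day 6. The difference of the log2 fold changes, day 12 minus day 6, was -1.80 ± 0.51 for CD79B, -0.92 ± 0.08 for IGHM, -0.71 ± 0.16 for IGHG4 and -0.23 ± 0.07 for EBF1. These 4 of 8 were past the threshold in edgeR, where 47.7% of all tested genes were, and 25.1% in this direction, so the share was near that of all genes and nothing is read from it. IGHM and IGHG4, 2 of 8, were also past it in the authors' table (limma), where 37.2% of tested genes were. The CD79B difference was -2.50 without replicate 1 of day 12 inhibitor, -1.48 in the authors' table with a pseudocount of 1 and -0.69 with 5. For the summed gamma genes the difference was -0.10 ± 0.09, and for IGHG3 it was 0.43 ± 0.29.

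Levels at day 12 and day 6 were then set side by side within each treatment, as a description. With inhibitor, 4 of 8 genes were past the threshold and lower at day 12 than at day 6, where 57.7% of all tested genes were called in either direction and 29.8% were called lower. The edgeR log2 change was -2.84 ± 0.41 for CD79B, -1.15 ± 0.06 for IGHM, -0.77 ± 0.13 for IGHG4 and -0.28 ± 0.06 for IGHG1. Without replicate 1 of day 12 inhibitor the CD79B value was -3.54, and in the authors' table it was -1.98 with a pseudocount of 5. The summed gamma genes changed by -0.33 ± 0.06 on the log2 scale, lower in 3 of 3 day 12 libraries than in all day 6 libraries. The log2 changes of IGHD, IGHG2, IGHG3 and EBF1 were -0.31 ± 0.23, -0.34 ± 0.39, 0.06 ± 0.22 and -0.11 ± 0.05 and were not past the threshold.

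With vehicle, 3 of 8 genes were past the threshold and lower at day 12 than at day 6, where 13.2% of all tested genes were called in either direction and 7.15% were called lower. The edgeR log2 change was -1.04 ± 0.29 for CD79B, -0.28 ± 0.06 for IGHG1 and -0.23 ± 0.06 for IGHM. The summed gamma genes changed by -0.22 ± 0.06, past the threshold, and were not past it with only the vehicle libraries, in the authors' table, without replicate 2 or 3 of day 6 vehicle, or without replicate 1 or 2 of day 12 vehicle. In signal, CD79B was at 54.4 to 123.5 at day 12 and at 176 to 248 at day 6, without overlap. All 3 calls were lost when only the vehicle libraries were fitted, in the authors' table, where limma called 0.97% of tested genes, and without replicate 2 or replicate 3 of day 6 vehicle. In each of these settings 3 genes were at an unadjusted p under 0.05. A single call was left without replicate 1 or without replicate 2 of day 12 vehicle, and 2 were left without replicate 1 of day 6 vehicle. Without replicate 3 of day 12 vehicle 4 were called, the added gene being EBF1, which was higher at day 12 (0.16). With all libraries, the genes other than CD79B, IGHG1 and IGHM had log2 changes between -0.38 and 0.12.

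Set side by side in TPM, the levels of the genes with vehicle ran from IGHM, at 226 to 289, through IGHG1, at 124 to 161, and IGHG4, at 61.1 to 72.0, to EBF1, at 51.3 to 59.3. Below these, CD79B (4.75 to 21.8) overlapped both IGHG3 (8.56 to 16.7) and IGHD (5.27 to 8.16), followed by IGHG2 (1.89 to 2.90) and CD79A (0 to 0.475). With inhibitor at day 12 the order at the top differed. EBF1 (52.7 to 58.8 TPM) and IGHM (47.4 to 53.3) overlapped there, IGHG1 lay at 41.5 to 44.4 and IGHG4 at 4.66 to 5.99. The ratio of IGHM to EBF1 in TPM was 0.839 to 0.954 with inhibitor and 4.27 to 4.71 with vehicle at day 12, and 1.80 to 2.04 with inhibitor and 5.14 to 5.64 with vehicle at day 6.

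The make-up of the heavy chain RNA also differed between groups. The ratio of IGHM to the summed gamma genes in TPM was 0.892, 0.979 and 1.04 with inhibitor and 1.15, 1.19 and 1.12 with vehicle at day 12. At day 6 it was 1.69, 1.80 and 1.75 with inhibitor and 1.21, 1.18 and 1.22 with vehicle. The inhibitor libraries thus lay above vehicle at day 6 and below it at day 12, without overlap at either day. IGHG4 made up 8.76%, 10.3% and 11.6% of gamma TPM with inhibitor and 31.2%, 31.7% and 30.8% with vehicle at day 12, and 15.5%, 14.3% and 19.9% with inhibitor and 26.2%, 29.4% and 27.3% with vehicle at day 6. IGHG1 made up 80.7 to 83.4% with inhibitor and 61.997 to 63.4% with vehicle at day 12. These shares rest on how Salmon divided reads among near-identical genes.

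**Figure D3:**
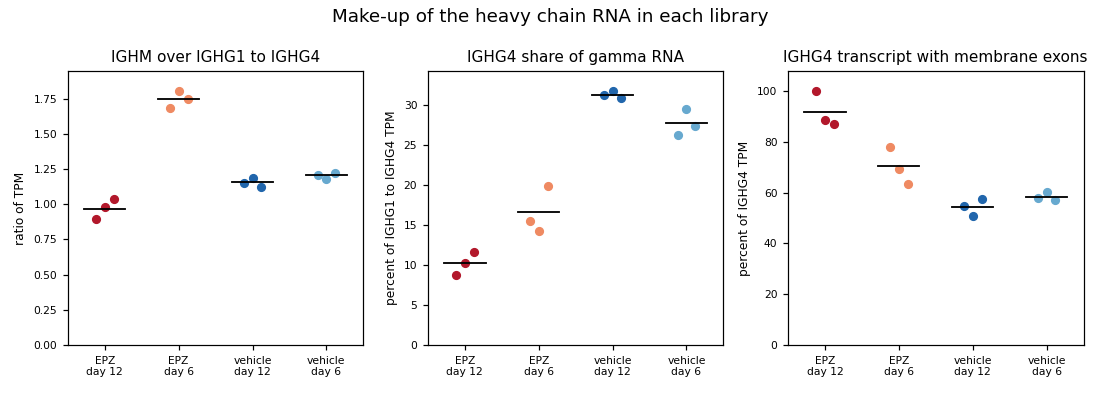
For each library (points, with the group mean as a line) the panels show the TPM ratio of IGHM to the summed gamma genes, the share of IGHG4 in gamma TPM, and the share of IGHG4 TPM in the transcript with the membrane exons, with inhibitor (EPZ) groups left of vehicle groups. The IGHM ratio with inhibitor lies above vehicle at day 6 and below it at day 12, and the IGHG4 share of gamma TPM lies between 8.76 and 11.6% with inhibitor at day 12.

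The annotated transcript of IGHG4 with membrane exons held 100%, 88.6% and 87.1% of the gene's TPM with inhibitor and 54.8%, 50.9% and 57.6% with vehicle at day 12. At day 6 it held 78.2%, 69.3% and 63.6% with inhibitor and 58.0%, 60.3% and 57.1% with vehicle. The other IGHG4 transcripts lay at 0 to 0.775 TPM with inhibitor and 27.6 to 33.7 TPM with vehicle at day 12. The IGHG4 membrane transcript was lower too at that day, at 4.59 to 5.22 TPM with inhibitor and 33.5 to 41.4 TPM with vehicle. These values too rest on how Salmon divided reads among the gamma genes. In IGHG2, at far lower levels, the membrane transcript held 100% in all inhibitor and vehicle libraries at day 12. In IGHG3 it held 100% with inhibitor and 79.5 to 100% with vehicle at day 12. In IGHM the membrane transcript held 55.0 to 73.7% with inhibitor and 52.4 to 55.8% with vehicle at day 12, and in IGHG1 45.9 to 55.0% with inhibitor and 47.9 to 52.0% with vehicle, where the groups overlapped in both genes. The levels of both the membrane and the other transcripts of IGHM were lower with inhibitor at day 12, the membrane one at 26.1 to 36.4 TPM against 118 to 147 TPM with vehicle, and the others at 12.96 to 23.3 TPM against 107 to 118 TPM with vehicle.

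Variable segments and light chains were nearly without reads. The files' heavy chain V rows covered 58 genes, 4 of them with any read and never more than 1 read in a library summed over all of them. The 30 D and 6 J segments had 0 reads, where a count of 0 allows up to 3 reads (counting error only). Whether reads could be assigned to the D and J segments at all was not tested, so nothing is read from their counts. Genes with names beginning in IGKC or IGLC, a group wider than the listed light chain constant genes, together had 0 to 12 reads a library. In a library IGKC and IGLC2 had 3 or fewer, IGLC1 had 4 or fewer, and IGHA1, the alpha chain gene, had at most 3. The lambda V genes, led by IGLV5-52, summed to 32 to 48 reads with inhibitor and 6 to 12 with vehicle at day 12, and to 15 to 25 with inhibitor and 9 to 29 with vehicle at day 6. None of 17 further listed genes passed the filter. These were other heavy and light chain constant genes, the pseudogenes IGHEP1 and IGHGP, and IGLL1, IGLL5, VPREB1, VPREB3 and JCHAIN.

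PAX5, the B lineage commitment factor, was lower with inhibitor at day 12. It was taken from the authors' table, since the summed reads held only 0.102 of its level there relative to the median gene. Its signal was 503, 905 and 850.2 with inhibitor and 1736, 1366 and 1719 with vehicle at day 12, without overlap, and 1521, 1058 and 1608 with inhibitor and 1496, 1587 and 1817 with vehicle at day 6, where the groups overlapped. The log2(value + 1) change was -1.13 ± 0.20 at day 12 (limma adjusted p = 2.75e-04) and -0.25 ± 0.20 at day 6 (limma adjusted p = 0.423). Relative to vehicle it was at 46.8% at day 12 and 85.4% at day 6.

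The EBF1 paralogs moved in different directions. EBF3 rose by 4.71 ± 0.69 on the log2 scale at day 12 (edgeR adjusted p = 2.85e-05) and by 4.23 ± 0.70 at day 6 (3.07e-04), with 95, 70 and 86 estimated reads in inhibitor libraries and 0, 6 and 2 in vehicle libraries at day 12. EBF4 rose by 2.78 ± 0.17 at day 12 and 2.59 ± 0.18 at day 6 (edgeR adjusted p = 2.45e-09 and 5.73e-08). EBF2 fell by 1.26 ± 0.08 at day 12 and by 0.24 ± 0.08 at day 6 (edgeR adjusted p = 5.61e-09 and 0.0312), and its day 6 call was lost with library totals (0.0642).

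Of 32 genes listed with the B lineage transcription factors, 27 were tested. The list also holds the EBF1 paralogs EBF2, EBF3 and EBF4 and the genes ID1, ID2 and ID4. Its counts and medians are therefore not those of B lineage factors alone. The 27 include PAX5 and SPIB, whose summed reads held only 0.102 and 0.671 of their level in the authors' table. At day 12, 15 rose and 8 fell (median log2 fold change 0.59), where 66.9% of all tested genes changed and 33.2% fell. At day 6, 11 rose and 4 fell (median 0.25), where 34.3% of all tested genes changed and 17.1% fell, and with library totals in place of TMM 12 rose and 2 fell. BACH2, a repressor in B cells, rose by 2.67 ± 0.14 at day 12 and 1.69 ± 0.14 at day 6, and BCL11A, a zinc finger factor needed for B cell development, rose by 1.40 ± 0.09 and 1.16 ± 0.09 (edgeR adjusted p at most 3.92e-07 for both genes and days). TCF3, which encodes the E2A proteins, fell by 0.63 ± 0.09 at day 12 and 0.34 ± 0.08 at day 6 (edgeR adjusted p = 1.18e-05 and 0.00618). POU2F1, which encodes the octamer binding factor OCT1, fell by 0.67 ± 0.05 at day 12 (2.97e-08), and its day 6 change of -0.03 ± 0.05 did not pass (0.688). LEF1, a Wnt pathway factor, rose by 2.52 ± 0.29 at day 6 (1.08e-05), and its change of 0.59 ± 0.28 at day 12 did not pass (0.0749), but did with library totals (0.0480) and in DESeq2 (0.0463). POU2AF1, the OCT1 and OCT2 coactivator, had at most 12 reads in any library.

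**Figure D4:**
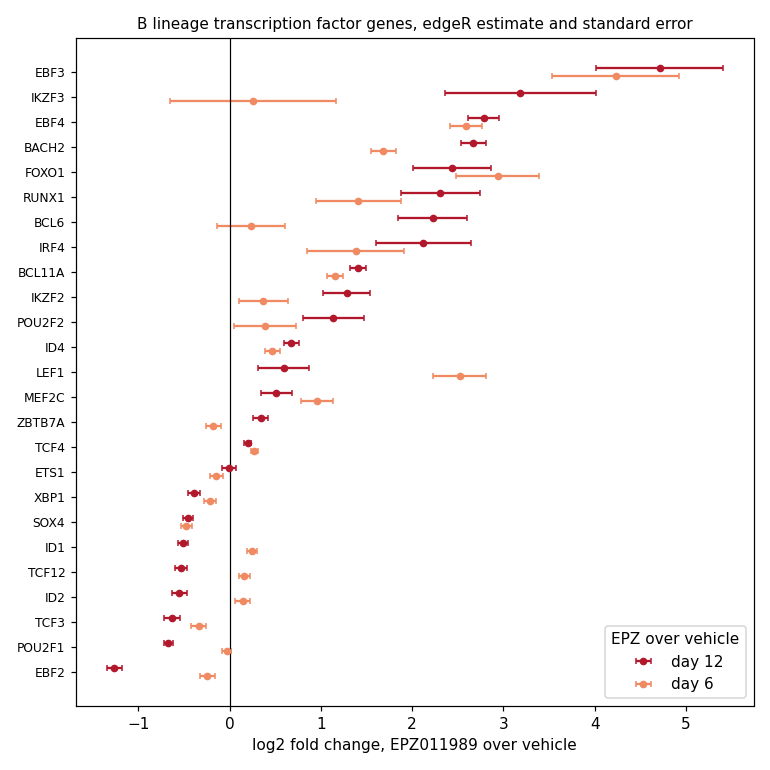
Each row is a tested gene of the B lineage transcription factor list, which also holds EBF1 paralogs and ID genes. Rows are ordered by the day 12 value. The x axis gives the edgeR log2 fold change of inhibitor over vehicle, with bars of 1 standard error, for day 12 and day 6. EBF3 and EBF4 lie far to the right and EBF2 farthest to the left at day 12. PAX5 and SPIB are left out because their summed reads held only part of their level.

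Among 27 listed B cell receptor signalling genes 14 were tested, of which 7 rose and 3 fell at day 12 (median 0.34) and 6 rose and 1 fell at day 6 (median 0.21). Thus 10 of 14 changed at day 12, where 66.9% of all tested genes did, and 7 of 14 at day 6, where 34.3% did. The 14 include PRKCB, whose summed reads held only 0.579 of its level in the authors' table. PLCG2, the phospholipase downstream of the receptor, rose by 3.86 ± 0.34 at day 12 and 3.03 ± 0.37 at day 6 (edgeR adjusted p = 1.47e-07 and 1.87e-05). PIK3CD, a leukocyte PI3 kinase catalytic subunit, rose by 3.20 ± 0.55 at day 12 and 2.36 ± 0.55 at day 6 (1.32e-04 and 0.00394). The 3 that fell at day 12 were FYN (-0.48), BCL10 (-0.62) and INPP5D (-2.86), and FYN, a SRC family kinase, was the 1 that fell at day 6 (-0.21). PIK3AP1, an adaptor of the receptor, rose by 2.88 ± 0.58 at day 6 (0.00155), and its change of 0.78 ± 0.60 at day 12 did not pass (0.269). MALT1, a paracaspase, rose by 0.39 ± 0.08 at day 6 (0.00243), and VAV2, an exchange factor, rose at both days by 0.26 ± 0.06 and 0.24 ± 0.06 (9.64e-04 and 0.00385). CD81, part of the B cell coreceptor, rose by 0.39 ± 0.05 at day 12 (5.72e-06). SYK, the kinase recruited by the receptor, had at most 22 reads in a library, and BLNK, its adaptor, at most 2.

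Of 18 listed genes of recombination and somatic diversification 14 were tested, with 9 lower and 3 higher at day 12 (median -0.71), where 33.2% of all tested genes were lower and the median gene was at 0.02. At day 6, 6 were lower and 1 was higher (median -0.14), where 17.1% of all tested genes were lower, and with library totals 4 were lower. At day 12 UNG, the uracil DNA glycosylase, fell by 2.05 ± 0.09, and the mismatch repair gene MSH6 fell by 1.40 ± 0.05 (edgeR adjusted p at most 5.90e-11). XRCC6 and PRKDC, subunits of the end joining kinase complex, fell by 0.79 ± 0.04 and 0.95 ± 0.04 (at most 4.50e-10). The 3 that rose were LIG4, POLL and TP53BP1, with LIG4, the end joining ligase, higher by 0.65 ± 0.08 at day 12 and also the 1 that rose at day 6, by 0.32 ± 0.08 (5.46e-06 and 0.00756). Many of these genes serve DNA repair and replication in all cells. The lymphoid enzymes of the list were barely detected, with RAG1 at 0 to 18 reads and DNTT, which encodes TdT, at 0 to 12.

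Of 21 B cell and plasma cell surface markers 7 were tested. CD24, a surface glycoprotein not confined to B cells, rose by 3.02 ± 0.05 at day 12 and 2.06 ± 0.06 at day 6 (edgeR adjusted p = 1.64e-14 and 3.34e-12). SDC1, a syndecan of plasma cells and epithelia, fell by 1.77 ± 0.13 and 0.57 ± 0.12 (2.06e-08 and 0.00214), and TNFRSF13C, the BAFF receptor gene, fell by 1.53 ± 0.17 at day 12 (1.66e-06). Of 16 leukocyte markers 4 were tested. At day 12 LCP1, whose summed reads held only 0.661 of its level in the authors' table, rose by 1.99 ± 0.68 and CORO1A fell by 0.56 ± 0.22 (0.0186 and 0.0382), a call that CORO1A lost with library totals (0.0697), and at day 6 edgeR called 0, with 0 at an unadjusted p under 0.05 and 0 by DESeq2. All 12 Merkel cell carcinoma markers were tested, with 3 higher and 6 lower at day 12 (median -0.11) and 1 higher and 9 lower at day 6 (median -0.27), beside 66.9% and 34.3% of all tested genes called. With library totals 5 were higher and 4 lower at day 12 and 1 was higher and 7 lower at day 6, and KRT20 in this list was summed to only 0.314 of its level. ISL1 and NEFM fell by 0.93 ± 0.05 and 0.88 ± 0.05 at day 12, and CHGA rose by 1.12 ± 0.09 (edgeR adjusted p at most 5.56e-08).

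Genes beside the heavy chain locus were counted in the same way. Within 1 Mb of a constant gene, 23 other genes were tested, all on the side of lower coordinates. At day 12, 8 rose and 6 fell (median 0.32), where 66.9% of all tested genes changed and 33.2% fell. At day 6, 2 rose and 6 fell (median -0.11), where 34.3% changed and 17.1% fell. The nearest tested gene, TMEM121 at 53.5 kb, rose by 1.81 ± 0.40 at day 6 (edgeR adjusted p = 0.00281), and its change of 0.63 ± 0.40 at day 12 did not pass (0.181). TEDC1, at 84.2 kb, fell by 0.74 ± 0.18 at day 12 and by 0.82 ± 0.17 at day 6 (0.00232 and 0.00221). CRIP1 and CRIP2, cysteine-rich LIM proteins at 94.8 and 103.6 kb, rose by 4.04 ± 0.50 and 2.74 ± 0.11 at day 12 (4.78e-06 and 3.02e-11). Their day 6 changes, -0.30 ± 0.48 and 0.27 ± 0.11, did not pass (0.683 and 0.0842). Farther out, CDCA4 fell by 1.56 ± 0.08 while CLBA1 and JAG2 rose by 1.84 ± 0.11 and 1.14 ± 0.07 at day 12 (edgeR adjusted p at most 4.03e-09), and at day 6 BTBD6 and SIVA1 fell by 0.41 ± 0.07 and 0.50 ± 0.11 (4.77e-04 and 0.00325). CRIP2 was at 67.5 to 78.5 CPM with inhibitor and 9.20 to 11.9 CPM with vehicle at day 12.

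**Figure D5:**
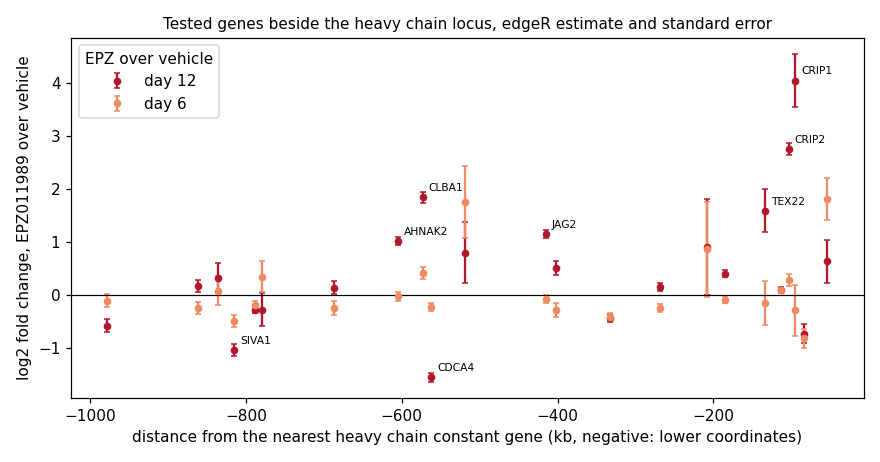
For the 23 tested genes within 1 Mb of the heavy chain constant genes, the x axis gives the distance in kb and the y axis the edgeR log2 fold change of inhibitor over vehicle with bars of 1 standard error, for day 12 and day 6. Genes beyond 1 on the log2 scale at day 12 are named: CRIP1 and CRIP2 stand highest near the locus, while CDCA4 (-1.56) and SIVA1 (-1.04) lie lowest.

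The genes whose level across the 12 libraries was most like that of the summed gamma genes (Pearson correlation of log2 CPM) were FREM2 (0.994), L1CAM (0.989), CBFA2T2 (0.988), INPPL1 (0.985) and SOGA1 (0.983). FREM2 was lower with inhibitor by 1.78 at day 12 and 1.47 at day 6 on the log2 scale. The genes most like CD79B were ALG5 (0.988), TLN1 (0.985), DAZAP2 (0.985), FAM83G (0.985) and POTEG (0.982), and among those most like EBF1 were UBE2D3 (0.985), ANKRD40 (0.982), CEP295 (0.976) and INTS6 (0.970). The libraries share the 4 groups, so these values describe likeness over the group levels and have no test.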

How the data were processed

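The deposited files hold, for each of 12 libraries, the authors' estimated counts (expected counts of reads) and TPM per transcript made with Salmon 1.2.0. FastQC, DESeq2 and the build hg38 are further names in the submitters' processing notes, which give no order or role. The authors also deposited a normalized gene signal for the series; how it was normalized is not given in those notes or labels. Of 179883 transcripts 168219 (93.5%) matched GENCODE release 29 and were summed per gene to 35329 genes, rounded for testing; unmatched rows held 3.08 to 3.58% of reads and were left out. The default filterByExpr left 15016 genes. These were scaled by TMM and tested two-sided by edgeR's quasi-likelihood method (edgeR 4.0.16, R 4.3.3). All 4 groups entered 1 model, and a gene was called at a Benjamini-Hochberg adjusted p below 0.05, adjusted over every tested gene. A standard error is the log2 fold change over the root of F. Prior degrees of freedom came to 5.91, with a common biological coefficient of variation of 10.1%. In a second fit IGHG1 to IGHG4 were replaced by their sum.

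Groups and replicate numbers came from the sample titles. Members and gene lists were chosen with earlier results of these data known. Named genes were all members, up to 4 of each list with the smallest p per day, a few fixed by name, the nearest and most changed neighbours of the locus, and the 5 genes most correlated with 3 members or sums; INPP5D, BCL10, POLL and TP53BP1 are named to complete small counts. Some genes that the rule took are left out of the text. SIVA1 is among the neighbours with the smallest p. Alternatives were DESeq2 1.42.0 size factors and its test, library totals, no filter, only the libraries of a contrast, limma 3.58.1 on the authors' table (log2(value + 1) or + 5), the replicate block, and leaving out each library. Scripts were tested on simulated data. Counting limits (3 reads for a count of 0) cover counting error only.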

Additional observations from a re-analysis of the deposited data

Results flagged for a closer look

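For 4 of 8 genes the fitted difference of the inhibitor response between the days was past the threshold in edgeR. So were 47.7% of all tested genes, and nothing is read from the count. The log2 fold change at day 12 minus that at day 6 was -1.80 for CD79B, -0.92 for IGHM, -0.71 for IGHG4 and -0.23 for EBF1. These genes were chosen with the response known, so the values are a description. In the authors' table the difference for EBF1 was -0.09 and that for CD79B was -1.48 with a pseudocount of 1 and -0.69 with 5, none past the threshold. With 1 library left out that of CD79B ran from -2.50 to -1.37, and the day 12 inhibitor libraries of CD79B rested on 9, 5 and 1 reads.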

How the results depend on the processing

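The log2 fold changes of IGHM, IGHD, IGHG1 to IGHG4, their gamma sum and CD79B in inhibitor against vehicle kept their direction at both days under every alternative run. Only IGHD at day 6 missed the threshold once, without replicate 2 of day 6 vehicle (-0.70), and EBF1 at day 12 missed it in the authors' table (-0.12 and -0.11 with pseudocounts 1 and 5); the cause was not tested. Changes over time in vehicle were fragile: 0 of 8 genes were called with only the vehicle libraries or in the authors' table with either pseudocount. When 1 library was left out 0 to 4 were called, and the 4 included EBF1, which was higher at day 12. The gamma sum in vehicle over time, -0.22 and called, lost its call at -0.23 with only the vehicle libraries and -0.15 in the authors' table. It ran from -0.28 to -0.15 with 1 library left out. For the difference between days, 2 genes were called in the authors' table, where 37.2% of tested genes were. The gamma sum of that difference ran from -0.18, past the threshold without replicate 1 of day 12 vehicle, to -0.053.

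Some small values changed sign. IGHG4 in vehicle was 0.019 in the authors' table with either pseudocount and -0.12 to 0.038 with 1 library left out. IGHG3 between days with inhibitor ran from -0.089 to 0.22. The difference between days of IGHG1 was 0.0012 with DESeq2 size factors, 0.0014 with the DESeq2 test, 0.032 with library totals and 0.032 and 0.033 in the authors' table, and -0.069 to 0.039 with 1 library left out. That of IGHG2 was -0.12 and -0.030 in the authors' table and ran from -0.54 to 0.34, and that of IGHD from -0.34 to 0.043.

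No pairing by replicate number was seen: deviations of same-numbered libraries from their group means correlated at -0.046 to 0.086. Libraries of different numbers in different groups correlated at -0.131 to 0.087. Whether same-numbered libraries were handled together cannot be told from these values. With the replicate number as a block, 8 genes were called at day 12 and 7 at day 6. In that fit 3 were called in vehicle, 5 with inhibitor over time and 4 for the difference. The shares of all tested genes in the main fit were, in this order, 66.9%, 34.3%, 13.2%, 57.7% and 47.7%. Shares in the block fit are not given, so nothing is read from these counts. With the block the difference for IGHG2 was -0.026, and EBF1 with inhibitor over time was past the threshold (-0.11). It was also past it with no low-count filter (-0.14), with only the inhibitor libraries (-0.11), and without replicate 3 of day 6 vehicle, replicate 3 of day 6 inhibitor, or replicate 1 or 3 of day 12 vehicle (-0.16 to -0.12).

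Library totals moved the median gene by 0.09 at day 12 against 0.02 with TMM. Depth limits CD79A throughout, IGHG2, and CD79B with inhibitor at day 12.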
